A study of Mus musculus with 12 samples.

Results

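The genes examined were 36 members of the synaptic vesicle and release machinery, out of 18193 genes measured on the arrays. They were chosen by name, as genes of the vesicle membrane, the calcium sensors, the fusion complex, the active zone, vesicle recycling and glutamate loading. The list was made with earlier results of these data known, so it was not tested as a set. All 36 were measured, each as the mean log2 level over probe sets that match no other gene. Expression was measured in medulloblastomas (MB) of 8 mice, in cerebellar granule progenitor cells (CGNP) of 2 mice and in whole cerebellum (WC) of 2 mice, with 1 array per mouse. MB is a malignant tumor of the cerebellum, and granule progenitors are the dividing cells of the cerebellar surface that give rise to granule neurons. Per the study's methods the tumors arose in Nestin-Cre p53-/- mice with conditional loss of Xrcc4 (c/- or c/c), a gene needed to join broken DNA ends. The Nestin promoter drives Cre in neural progenitors and not in granule progenitors alone. The study describes the normal samples as matched in age and genotype, so that p53 loss and Nestin-Cre may be common to all groups, and the ages of the mice behind these arrays were not given in the sources used here. The labels call the MB samples tumor tissue, while the methods list most of these tumors among the cultured MB cells.

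A neuron stores transmitter in small vesicles. Vesicle transporters fill them with transmitter, synapsins tether them, active zone proteins dock and prime them, and SNARE proteins pull vesicle and plasma membrane together. Synaptotagmins sense the calcium that triggers fusion, and endocytosis recovers the membrane. In the cerebellum, mature granule neurons release glutamate onto Purkinje cells and load it mainly with the transporter encoded by Slc17a7, whereas immature granule cells use more of the one encoded by Slc17a6.

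The arrays carry their own limits. The lowest value in the table was 2.20 on the log2 scale, and a gene is said to be at the floor in a group where every sample lay within 0.5 of it. For 12 release genes (Bsn, Dnm1, Napb, Nsf, Rab3c, Syn2, Syn3, Syt1, Syt2, Syt7, Unc13c and Vamp1) some of the averaged probe sets were at the floor in all tumors. In tumor MB_706 control probe sets at the 3' end of Gapdh and actin exceeded those at the 5' end by 2.93 log2 units on average, against 0.56 to 0.82 in the other tumors, 0.15 and 0.23 in CGNP and 0.48 and 0.52 in WC. A wide gap of this kind is a sign of degraded RNA. Xrcc4 lay between 2.44 and 3.57 in the tumors, against 3.57 and 4.19 in CGNP and 4.25 and 4.34 in WC. Levels of marker genes followed the labels of the groups in part. All 5 measured genes of granule progenitors and division were higher in MB than in CGNP and in CGNP than in WC. All 6 markers of mature granule neurons and all 6 of Purkinje cells were lower in MB than in WC. The granule progenitor and division markers averaged 10.6 to 10.9 in MB, against 6.69 and 6.90 in CGNP. Mesenchymal markers averaged 6.97 and 7.19 in CGNP, against 4.63 and 4.43 in WC.

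Most of the release machinery was expressed at lower levels in the tumors than in either normal tissue. Of the 36 genes, 30 were lower and 0 were higher in MB as compared to CGNP (limma, adjusted p under 0.05), where 18.6% of all genes were lower and 18.7% were higher (0 higher also without adjustment). As compared to WC, 30 were lower and 2 were higher, where 21.8% of all genes were lower and 22.2% were higher. The median log2 fold change over the 36 genes was -2.48 against CGNP and -2.90 against WC, beside a median of 0 over all genes in both comparisons. For 26 of the 36 genes every tumor lay below every normal sample, a pattern shown by 12.1% of all genes. The mean level over the 36 genes lay between 5.45 and 6.22 in the 8 tumors, against 7.93 and 8.04 in CGNP and 8.48 and 8.45 in WC, so that the tumors and the normal samples did not overlap. In bulk samples, fewer cells that express a gene and less RNA per cell cannot be told apart.

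**Figure D1:**
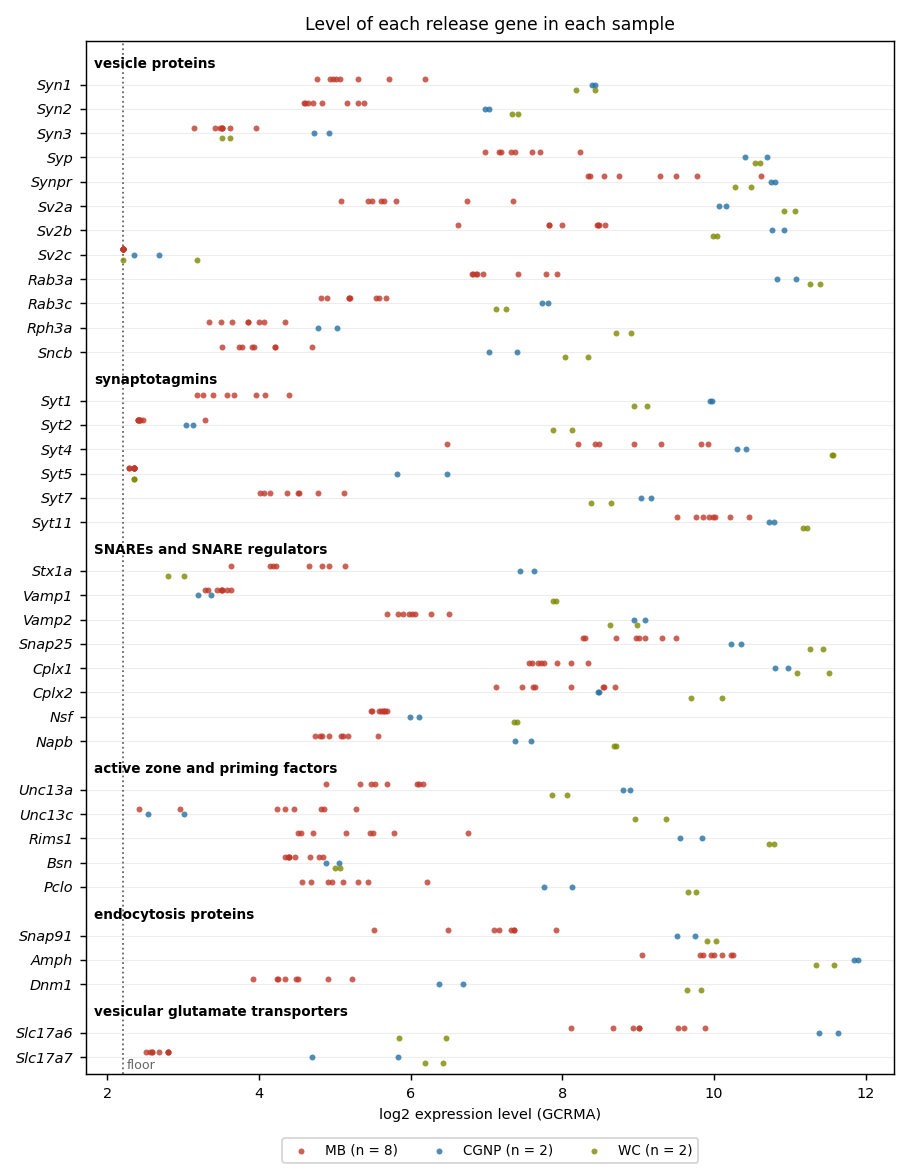
Log2 expression level of each of the 36 release genes in each sample (x axis), with genes grouped by role down the page. Each point is 1 sample of MB (n = 8), CGNP (n = 2) or WC (n = 2), and the dotted line is the floor at 2.20. In 26 of the 36 rows all MB points lie left of all CGNP and WC points.

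Fewer release genes were called different between the normal tissues, which differ in maturity. As compared to WC, CGNP had 9 release genes lower and 4 higher, where 13.6% of all genes were lower and 14.9% were higher, and the median log2 fold change over the 36 genes was -0.37. Lower in MB than in both tissues, with no difference called between CGNP and WC, were 19 of the 36 genes. Another 6 were lower in MB than in CGNP and lower in CGNP than in WC. Between CGNP and WC no difference was called for 13013 of all 18193 genes. The share of all genes with each combination of calls was not counted. With only the CGNP and WC arrays in the fit, 15 release genes were lower and 8 higher in CGNP. The share of all genes called in that fit was not counted. The missing calls between these tissues in the fit of all 12 samples do not show that the levels were the same.

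Promoter sequences were searched because many of these genes moved together and because REST, a repressor of neuronal genes in cells that are not neurons, acts through a known DNA element. RefSeq promoters of GRCm38.p6, 300 bases around a gene start each, were at hand for 30 of the 36 genes (41 promoters). On both strands, the left and right parts of this element, TTCAGCACC and GGACAGCGC were looked for. The first was found in Syn1 and Unc13a and in 0.371% of 32851 promoters, the second in Unc13a and in 0.405%, and both together in Unc13a and in 5 promoters overall. Only exact strings were counted, at any distance from each other and in any order, so a part with a mismatch was missed. Whether either gene holds the whole element was not tested. The stretches below show these matches in capitals, each read 5' to 3' on the strand of its gene, and in Unc13a the capitals are the reverse complement of these parts.
Syn1, chrX:20921069-20921168, minus strand: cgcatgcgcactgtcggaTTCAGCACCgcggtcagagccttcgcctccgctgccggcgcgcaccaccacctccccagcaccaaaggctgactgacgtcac
Unc13a, chr8:71671727-71671752, minus strand: GCGCTGTCCgcgcccccGGTGCTGAA
With the start counted as 0, the match began at -232 in Syn1, and the matches in Unc13a spanned positions 5 to 30, within the transcribed part. The shorter cores, which overlap these parts, were more frequent: CAGCACC occurred in 4 of the 30 genes (Syn1, Unc13a, Rph3a and Sv2c) and in 8.14% of all genes with a promoter, and GGACAG in 9 of the 30 genes and in 24.7% of all genes with a promoter. A match is a string of letters and not a measured binding site.

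Among the proteins of the vesicle itself, 11 of 12 genes were lower in MB than in CGNP and 9 of 12 were lower than in WC. Synaptophysin (Syp), the most used marker protein of synaptic vesicles, lay between 6.98 and 8.23 in the tumors (median 7.35), against 10.41 and 10.70 in CGNP and 10.54 and 10.61 in WC. Sv2a, a vesicle glycoprotein and the target of the drug levetiracetam, lay between 5.08 and 7.35 in the tumors (median 5.63), against 10.06 and 10.16 in CGNP and 10.93 and 11.06 in WC. Rab3a, the small GTPase that guides vesicles to release sites, lay between 6.81 and 7.93 in the tumors (median 6.91), against 10.83 and 11.08 in CGNP and 11.27 and 11.39 in WC. For these 3 genes no tumor reached any normal sample. The log2 fold change of Sv2a was -4.21 against CGNP (standard error 0.52, adjusted p = 0.000128, limma) and -5.10 against WC (adjusted p = 2.28e-05), and that of Rab3a was -3.77 and -4.15.

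Synapsin 1 (Syn1), whose promoter stretch is printed above, tethers vesicles to each other and to actin. It stood at 4.76 to 6.19 in the tumors (median 5.04), against 8.39 and 8.43 in CGNP and 8.17 and 8.43 in WC, which is an 8.95-fold lower level than in CGNP and an 8.33-fold lower level than in WC. Syn2 was lower by 2.10 and 2.47 log2 units in MB, in the same order. Syn3, the synapsin found early in neuronal development, behaved in another way: it lay between 3.15 and 3.96 in the tumors, against 4.72 and 4.92 in CGNP and 3.51 and 3.62 in WC. Tumors overlapped WC for Syn3, and the log2 fold change was -1.30 against CGNP (adjusted p = 0.000121, limma) and -0.05 against WC (95% confidence interval -0.40 to 0.31). One of the probe sets averaged for Syn3 was at the floor on every array, which draws its fold changes towards 0. On the probe set of highest level, left out of the mean because of its suffix, the tumors stood at 4.35 to 7.05, against 9.10 and 9.68 in CGNP and 7.34 and 7.44 in WC, so that there they lay below WC as well. The difference on that probe set was -3.18 from CGNP and -1.18 from WC (adjusted p = 0.149, limma).

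Of the remaining vesicle genes, Sncb (beta-synuclein, a presynaptic protein) was lower by 3.22 log2 units than in CGNP and by 4.18 than in WC. Sv2b was lower by 2.81 and 1.98 log2 units, and Rab3c by 2.51 and 1.93, or by 4.12 and 3.99 with its probe set of highest level. Rabphilin (Rph3a), an effector that binds Rab3 proteins, lay between 3.34 and 4.34 in the tumors, against 4.78 and 5.03 in CGNP and 8.71 and 8.91 in WC. For Rph3a both MB and CGNP were far below WC, with log2 fold changes of -4.98 for MB and -3.90 for CGNP, and the smaller gap of -1.08 between MB and CGNP lost its call without CGNP_2705 (adjusted p = 0.0523, limma). Synaptoporin (Synpr), a relative of synaptophysin, lay between 8.34 and 10.62 in the tumors, against 10.75 and 10.81 in CGNP and 10.28 and 10.49 in WC. Tumor MB_630 alone lay above the WC samples for Synpr. The difference from CGNP just passed (-1.63, adjusted p = 0.0403, limma) and did not pass once any 1 of tumors MB_706, MB_794, MB_1197, MB_1206, MB_1207 and MB_1224 or any 1 normal sample was left out (adjusted p between 0.0504 and 0.182), while the difference from WC of -1.24 passed without tumor MB_630 (-1.45, adjusted p = 0.0152). Sv2c was at the floor in MB and CGNP and reached 3.18 in 1 of the WC samples, and it passed no test in the fit of all 12 samples.

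Synaptotagmins differed widely from one member to the next. Syt1, the calcium sensor of fast release in forebrain neurons, stood at 3.18 to 4.40 in the tumors (median 3.63), against 9.95 and 9.97 in CGNP and 8.94 and 9.12 in WC. Every tumor lay far below every normal sample. The log2 fold change of -6.27 against CGNP (standard error 0.29, adjusted p = 1.96e-07, limma) was a mean over 4 probe sets, and against WC it was -5.34 (adjusted p = 2.8e-07). Of these 4 probe sets 2 were at the floor in every tumor, so that their part of the fold is a lower bound, and over the other 2 the mean difference was -5.72 against CGNP and -5.25 against WC. Syt7, a slow and sensitive calcium sensor, lay between 4.01 and 5.12 in the tumors (median 4.44), against 9.03 and 9.17 in CGNP and 8.38 and 8.64 in WC, with log2 fold changes of -4.66 and -4.07, or -6.08 and -5.32 over the 3 probe sets not at the floor in the tumors.

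Syt2, the fast sensor of hindbrain neurons, separated WC from the others. It stood at 2.40 to 2.47 in 7 tumors and at 3.28 in tumor MB_630, against 3.04 and 3.13 in CGNP and 7.87 and 8.13 in WC. The log2 fold change against WC was -5.47 for MB and -4.92 for CGNP. The difference of -0.55 between MB and CGNP did not pass (adjusted p = 0.0675, limma) and passed when tumor MB_630 was left out (-0.66, adjusted p = 2.52e-05), and in that tumor the mean of the Purkinje markers was 6.23, against 3.07 to 4.15 in the other tumors; the part of other cells in its Syt2 level was not tested. Syt5 showed a reverse pattern. It was at the floor in MB and WC and stood at 5.82 and 6.47 in CGNP, so that it was at least 3.81 log2 units lower in MB (adjusted p = 1.31e-08, limma), and no fold is given between MB and WC.

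Syt4 and Syt11 belong to the synaptotagmins that lack calcium binding of the usual kind. Syt4 varied more among the tumors than any other member, from 6.47 in tumor MB_794 to 9.93 in tumor MB_630, against 10.31 and 10.42 in CGNP and 11.56 and 11.57 in WC. All tumors lay below all normal samples, but the difference of -1.66 from CGNP did not pass (adjusted p = 0.115, limma) and that of -2.87 from WC did (adjusted p = 0.0104), though not with either WC sample left out (0.0692 without WC_2646, 0.0667 without WC_2647). Syt11 was lower by 0.79 log2 units than in CGNP and by 1.24 than in WC, with tumors at 9.51 to 10.46 and CGNP at 10.73 and 10.79. Its call against CGNP was lost with either CGNP sample left out (0.0528 without CGNP_2698, 0.0737 without CGNP_2705) and with the probe set of highest level (-0.27).

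Of the 8 SNAREs and SNARE regulators, 6 were lower in MB than in CGNP and 7 were lower than in WC, with 1 higher than in WC. The vesicle SNARE Vamp2 lay between 5.69 and 6.50 in the tumors, against 8.95 and 9.09 in CGNP and 8.63 and 8.98 in WC, a log2 fold change of -2.99 and -2.78 and no overlap with either tissue. Vamp1, its close relative of hindbrain and spinal cord neurons, lay between 3.28 and 3.62 in the tumors, against 3.19 and 3.37 in CGNP and 7.87 and 7.92 in WC. Vamp1 was 21.4-fold lower in MB than in WC (adjusted p = 1.52e-10, limma) while the tumors overlapped CGNP, where the difference of 0.19 did not pass (95% confidence interval of the difference up to 0.38; 0.22 without tumor MB_1206, adjusted p = 0.0477). One of the 2 probe sets averaged for Vamp1 was at the floor in MB and CGNP.

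The target SNAREs differed. Snap25, which contributes helices to the fusion complex from the plasma membrane, lay between 8.27 and 9.50 in the tumors (median 8.99), against 10.23 and 10.35 in CGNP and 11.26 and 11.44 in WC, with log2 fold changes of -1.40 and -2.45 (-2.16 against CGNP with the probe set of highest level). Syntaxin 1A (Stx1a), the other plasma membrane SNARE, lay between 3.63 and 5.14 in the tumors (median 4.44), against 7.44 and 7.62 in CGNP and 2.80 and 3.02 in WC. All tumors lay between the normal tissues, 3.07 log2 units below CGNP (adjusted p = 7.2e-05, limma) and 1.55 above WC (adjusted p = 0.00411). CGNP exceeded WC by 4.62 log2 units. A probe set of Stx1a left out of the mean because of its suffix gave the same order, with means of 8.29 in MB, 10.47 in CGNP and 5.09 in WC, and a difference of 3.20 between MB and WC.

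Complexin 1 (Cplx1), a clamp and activator of the SNARE complex, was lower by 3.05 log2 units than in CGNP and by 3.47 than in WC, with tumors at 7.56 to 8.33, CGNP at 10.80 and 10.97 and WC at 11.10 and 11.52. Complexin 2 (Cplx2) did not follow: tumors lay between 7.13 and 8.69, against 8.47 and 8.48 in CGNP and 9.69 and 10.10 in WC. Tumors overlapped CGNP for Cplx2 (-0.51, 95% confidence interval -1.42 to 0.40) and were lower than WC by 1.93. The ATPase Nsf, which takes spent SNARE complexes apart in all cells, had a narrow spread. The tumors lay between 5.48 and 5.68 (SD 0.08, n = 8), against 5.99 and 6.11 in CGNP and 7.37 and 7.41 in WC, and the log2 fold changes were -0.45 and -1.79. With the probe set of highest level they were -1.60 and -3.66. The averaged probe sets of Nsf disagreed: besides that one, another lay near the floor, and the remaining one stood at 5.56 to 6.06 in the tumors, against 5.70 and 5.72 in CGNP and 7.10 and 7.39 in WC. Napb, the neuronal adaptor of Nsf, was lower by 2.45 and 3.67.

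**Figure D2:**
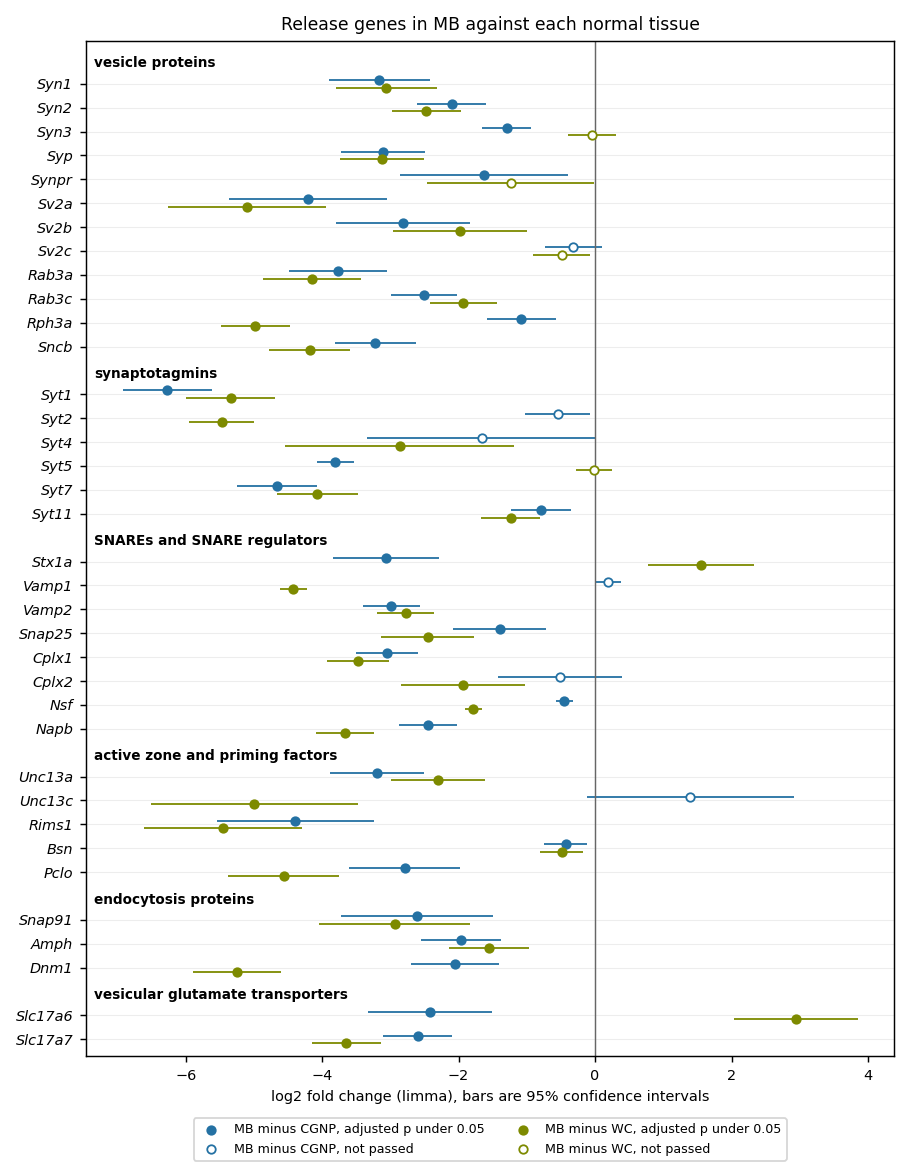
Log2 fold change of each release gene in MB against CGNP (blue) and against WC (green), with 95% confidence intervals from limma over 8 MB, 2 CGNP and 2 WC samples. Filled points passed an adjusted p of 0.05. All points but Vamp1 and Unc13c against CGNP, and Stx1a and Slc17a6 against WC, lie left of 0, with Syt1 against CGNP at -6.27.

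All 5 genes of the active zone and of priming were lower in MB than in WC, and 4 of them were lower than in CGNP. Rims1, a scaffold that links Rab3 on the vesicle to calcium channels, lay between 4.52 and 6.76 in the tumors (median 5.31), against 9.55 and 9.84 in CGNP and 10.73 and 10.79 in WC, with log2 fold changes of -4.39 and -5.45 and no overlap. Piccolo (Pclo), a giant scaffold of the active zone, was lower by 2.79 than in CGNP and by 4.57 than in WC, with tumors at 4.57 to 6.22, and by 2.45 than in WC with the probe set of highest level. Bassoon (Bsn), its partner, changed little as a mean of 3 probe sets (-0.43 and -0.49), of which 1 was at the floor on every array and 2 disagreed. The probe set of highest level stood at 6.77 to 7.65 in the tumors, against 8.64 to 9.13 in CGNP and 9.58 to 9.68 in WC, whereas another stood at 3.65 to 4.69 in the tumors, against 3.81 to 3.83 in CGNP and 3.09 to 3.40 in WC. The call for the Bsn mean was lost against CGNP without any 1 of tumors MB_630, MB_1187, MB_1206, MB_1207 and MB_1224 or any 1 normal sample (adjusted p between 0.0514 and 0.264, limma), and against WC without either WC sample (adjusted p = 0.0741 without WC_2646, 0.117 without WC_2647).

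The 2 Munc13 genes, which prime docked vesicles for fusion, went apart. Unc13a, the form used at most brain synapses and the gene with both parts of the element in the stretch printed above, lay between 4.88 and 6.16 in the tumors (median 5.61), against 8.81 and 8.90 in CGNP and 7.87 and 8.06 in WC. It was lower in MB by 3.19 log2 units than in CGNP and by 2.31 than in WC, with no overlap. Unc13c, the form of cerebellar granule neurons, stood at 2.42 in tumor MB_1207, 2.95 in tumor MB_1224 and 4.24 to 5.27 in the other tumors, against 2.53 and 3.01 in CGNP and 8.96 and 9.37 in WC. It was lower than in WC by 4.99 log2 units in MB and by 6.39 in CGNP, with both CGNP samples and tumors MB_1207 and MB_1224 near the floor. The difference of 1.40 between MB and CGNP did not pass (adjusted p = 0.143, limma) and passed without tumor MB_1207 (1.65, adjusted p = 0.0325).

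All 3 endocytosis genes were lower in MB than in both tissues. Dynamin 1 (Dnm1), the neuronal GTPase that cuts vesicles free, lay between 3.92 and 5.22 in the tumors (median 4.41), against 6.38 and 6.70 in CGNP and 9.64 and 9.83 in WC, and no groups overlapped. The log2 fold change was -2.05 against CGNP (adjusted p = 0.000303, limma; -3.22 with the probe set of highest level) and -5.25 against WC (adjusted p = 2.83e-07). Snap91 (AP180), a clathrin adaptor of synaptic vesicles, was lower by 2.61 and 2.94, with tumor MB_1187 lowest at 5.52 and the others at 6.49 to 7.91. Amphiphysin (Amph), which brings dynamin to curved membrane, was lower by 1.96 and 1.55, with tumors at 9.05 to 10.26.

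The 2 vesicular glutamate transporters set the groups apart. Slc17a6 (VGLUT2), the transporter of immature granule cells, lay between 8.12 and 9.89 in the tumors (median 9.01), against 11.38 and 11.64 in CGNP and 5.84 and 6.46 in WC. No groups overlapped, and MB were 2.42 log2 units below CGNP (standard error 0.40, adjusted p = 0.00096, limma; 1.49 below with the probe set of highest level) and 2.94 above WC (adjusted p = 0.000189). Slc17a7 (VGLUT1), the transporter of mature granule neurons, lay between 2.51 and 2.80 in the tumors, close to the floor, against 4.70 and 5.83 in CGNP and 6.19 and 6.43 in WC. It was lower in MB by 2.60 log2 units than in CGNP (adjusted p = 1.24e-05) and by 3.64 than in WC (adjusted p = 6.66e-07). CGNP lay below WC for Slc17a7 by 1.04, a call lost without CGNP_2698 (-0.48, adjusted p = 0.0519, limma) or WC_2646 (-0.92, adjusted p = 0.115), while the difference was -1.61 without CGNP_2705.

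**Figure D3:**
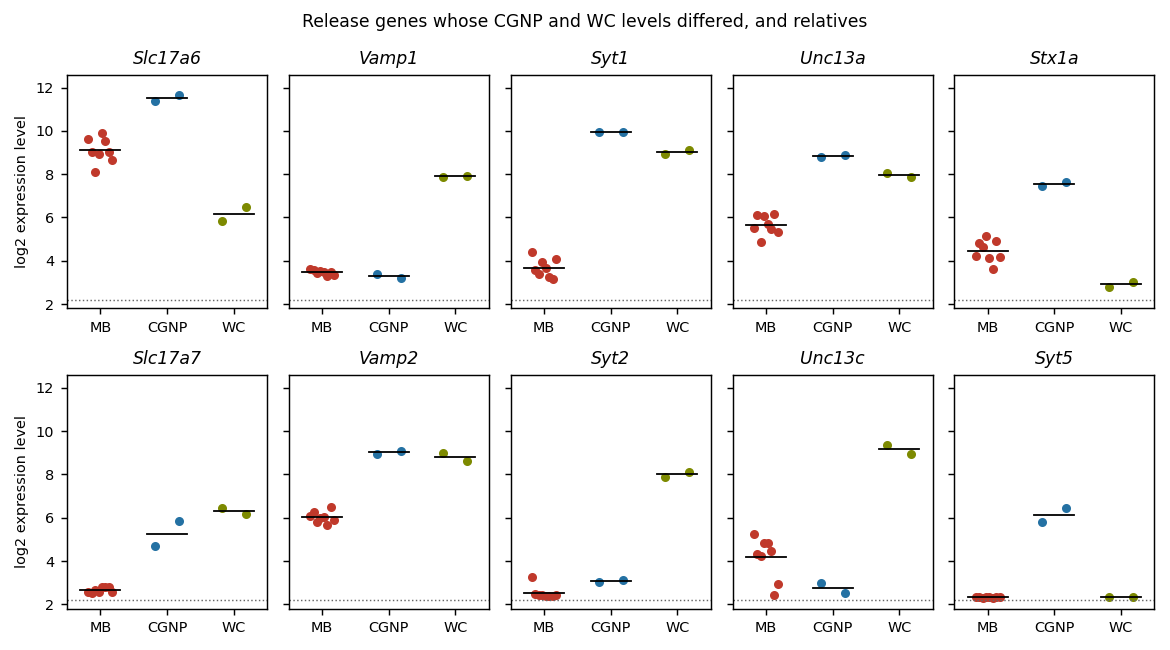
Log2 expression level of 10 release genes in MB (8 points), CGNP (2) and WC (2), with the mean as a black line and the floor of 2.20 dotted. Slc17a6 and Stx1a in MB lie between CGNP and WC, Vamp1, Syt2 and Unc13c are high in WC, Syt5 is high in CGNP, and Slc17a7, Vamp2, Syt1 and Unc13a are low in MB as compared to both.

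Seen over all roles, the release genes fell into a few combinations of calls, whose shares over all genes were not counted. Besides the 19 and 6 named above, 3 (Syt2, Vamp1 and Unc13c) were lower than in WC in both MB and CGNP with no difference between those called. In 2 (Stx1a and Slc17a6) the tumors stood between CGNP, the highest, and WC, the lowest. Syn3 and Syt5 were higher in CGNP than in MB and WC (for Syn3 the call of CGNP against WC was lost with the probe set of highest level, adjusted p = 0.0783, limma), Syt4 and Cplx2 were called in MB against WC alone, Synpr in MB against CGNP alone, and Sv2c in none. Between CGNP and WC, Syt1, Sncb, Snap25 and Cplx2 did not pass in the fit of all samples (adjusted p between 0.0592 and 0.0955, limma), but each passed with 1 tumor left out of the shared estimate of the spread (tumor MB_630 for Syt1, tumor MB_630 or MB_794 for Sncb, tumor MB_630 or MB_1224 for Snap25 and tumor MB_1206 for Cplx2, adjusted p between 0.0170 and 0.0479). The call for Pclo, lower in CGNP by 1.78, was lost without CGNP_2705, WC_2646 or WC_2647 (adjusted p 0.0596 to 0.0896) and with the probe set of highest level (-0.40).

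The tumors differed among themselves in how much of the machinery they had. Over the 34 genes above the floor in MB the median SD was 0.403 log2 units (n = 8 tumors), beside 0.272 over all 12224 genes above the floor. Tumor MB_630 had the highest level for 20 genes and lay on average 0.54 log2 units above the median tumor over the 36 genes. Its distance from the median tumor was widest for Sv2a (7.35, against 5.08 to 6.74 in the others), Synpr (10.62, against 8.34 to 9.78), Rims1 (6.76, against 4.52 to 5.78) and Syt4 (9.93, against 6.47 to 9.83). Tumor MB_794 had the lowest mean, 0.23 below the median tumor, and tumor MB_1206 had the lowest level for 9 genes. Tumor MB_706, the array with the wide gap between 3' and 5' controls, lay 0.08 above the median tumor on average and was highest for 2 genes and lowest for 4. The share of all genes highest or lowest in each tumor was not counted, so these counts may not be particular to the release genes. Without tumor MB_630 the median log2 fold change over the 36 genes was -2.54 against CGNP and -3.01 against WC, and without tumor MB_706 it was -2.46 and -2.94.

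Several lists of markers of other cerebellar cells were highest in tumor MB_630. In that tumor the 6 mature granule neuron markers averaged 7.35, against 4.36 to 5.81 in the other tumors, the 6 Purkinje markers 6.23 against 3.07 to 4.15, the 4 inhibitory interneuron markers 5.84 against 3.42 to 5.12, the 6 oligodendrocyte markers 5.45 against 3.35 to 5.17 and the 6 mesenchymal markers 6.41 against 3.03 to 4.13. Endothelial markers were also highest there (4.18, against 2.50 to 3.52), and astroglia markers by little (6.93, against 5.12 to 6.83). Microglia markers (7.41, against 6.26 to 7.76) and unipolar brush cell markers (4.29, against 2.98 to 4.30) were not highest in that tumor. The part of these cells in the release gene levels of tumor MB_630 was not tested. Syt1 (4.40), Syt7 (5.12) and Rab3a (7.93) in that tumor are among the 26 release genes with every tumor below every normal sample. Others were not so low there. Tumor MB_630 exceeded both WC samples for Synpr (10.62), and both CGNP samples for Cplx2 (8.69), Syt2 (3.28) and Unc13c (5.27), among others.

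**Figure D4:**
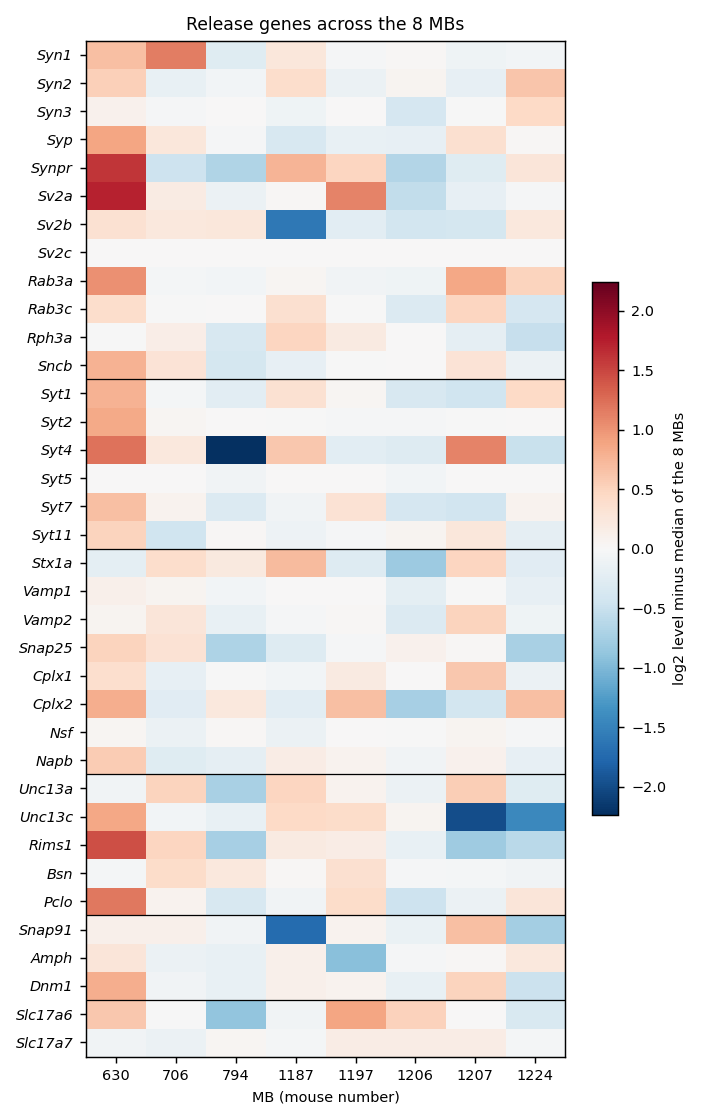
Log2 level of each release gene in each MB minus the median of the 8 MBs (color scale), with genes in rows by role and tumors in columns by mouse number. Red is above and blue below the median tumor. Tumor MB_630 is red in most rows, and single low values stand out for Syt4 in tumor MB_794, Sv2b and Snap91 in tumor MB_1187 and Unc13c in tumors MB_1207 and MB_1224.

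Markers of other cells also differed between the groups, though the averages of several lists overlapped between MB and CGNP. Mature granule neuron markers averaged 4.36 to 7.35 in MB, against 5.78 and 6.02 in CGNP and 11.26 and 11.42 in WC, none at the floor, and 2 of 6 were lower in MB than in CGNP. Purkinje markers averaged 3.07 to 6.23 in MB, against 4.65 and 4.51 in CGNP (Slc1a6 and Ppp1r17 at the floor) and 10.91 and 11.03 in WC. Microglia markers averaged 6.26 to 7.76 in MB, against 3.52 and 4.52 in CGNP (P2ry12 and Itgam at the floor) and 5.55 and 5.65 in WC (Itgam at the floor), with 7 of 8 higher in MB than in CGNP and 4 of 8 higher than in WC. Inhibitory interneuron markers averaged 3.42 to 5.84 in MB (Slc6a5 at the floor), against 5.86 and 5.82 in CGNP and 9.47 and 9.45 in WC, with 3 of 4 lower in MB than in CGNP and 4 of 4 lower than in WC. Gad1, the enzyme that makes GABA, lay between 2.53 and 7.52 in MB, against 10.11 and 10.14 in CGNP. These 4 markers did not move alike, with log2 fold changes against CGNP from -5.63 to 2.66 and 0 called higher. Of the unipolar brush cell markers Lmx1a was at the floor in all groups, and Eomes, a transcription factor of these cells, lay between 3.76 and 6.40 in MB, against 10.05 and 10.01 in CGNP and 7.37 and 7.51 in WC, lower in MB than in both. Astroglia markers averaged 5.12 to 6.93 in MB, against 7.57 and 7.64 in CGNP and 8.23 and 8.22 in WC, with 4 of 7 lower in MB than in CGNP and 5 of 7 lower than in WC. Oligodendrocyte markers averaged 3.35 to 5.45 in MB, against 4.71 and 6.19 in CGNP and 9.44 and 9.48 in WC. Mesenchymal markers averaged 3.03 to 6.41 in MB, against 6.97 and 7.19 in CGNP and 4.43 and 4.63 in WC (Col1a1 at the floor), with all 6 lower in MB than in CGNP. The part of these cells in the release gene levels was not tested.

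The drop reached further into the pathway but was less even there. Of 50 other genes of vesicle release 44 were measured, with 28 lower and 6 higher in MB than in CGNP (median log2 fold change -1.30) and 33 lower and 3 higher than in WC (median -1.31). Of all genes, 18.6% were lower and 18.7% higher than in CGNP, and 21.8% and 22.2% than in WC. At the floor were 7 of the 44 in MB, 8 in CGNP and 5 in WC, against 2, 1 and 1 of the 36 release genes. A gene at the floor in both groups cannot show a fall. The largest falls were those of Lin7a, a presynaptic and postsynaptic scaffold (-6.04 against CGNP and -6.20 against WC), Rims4, a short relative of Rims1 (-4.47 against CGNP), and Atp6v1g2, a neuronal subunit of the proton pump that energizes vesicles (-5.59 against WC). Against this trend Doc2a, a calcium sensor of spontaneous release, lay between 6.98 and 8.91 in the tumors, against 3.62 and 3.93 in CGNP and 2.56 and 3.63 in WC. All tumors exceeded all normal samples for Doc2a (3.76 and 4.44 higher, adjusted p = 0.000208 and 4.53e-05, limma). Syt13, a synaptotagmin that does not bind calcium, was higher by 3.69 in MB than in CGNP, and Sh3gl3, an endophilin, was higher by 1.29 than in WC.

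Relatives of the release genes that serve membrane traffic in most cells moved less. Of 37 such genes 36 were measured, with 13 lower and 7 higher in MB than in CGNP (median -0.29) and 14 lower and 7 higher than in WC (median -0.41). That is 36.1% lower and 19.4% higher than in CGNP, and 38.9% and 19.4% than in WC, beside the shares of all genes given above. Syngr2, the broadly expressed relative of the vesicle protein synaptogyrin 1, rose by 2.20 and 1.89 log2 units, and Stx6, a syntaxin of the Golgi and endosomes, rose by 0.88 and 1.14. Stx3, a syntaxin of epithelial and sensory cells, fell by 2.32 and 3.08, Stx7, a syntaxin of late endosomes, by 1.84 against CGNP, and Vamp8, a SNARE of endosomes and secretory granules, by 2.88 against WC. The difference between these lists was not tested.

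Genes of REST and its corepressors either were higher in the tumors or did not pass the test. Of the 9 genes, 5 were higher in MB than in CGNP and 8 were higher than in WC, with 0 lower in either, also without adjustment. Of all genes, 18.7% and 22.2% were higher in these comparisons. Between the normal tissues, 6 of the 9 were higher in CGNP than in WC and 0 lower, where 14.9% of all genes were higher. Rcor2, a corepressor of the CoREST family, lay between 8.39 and 9.31 in the tumors, against 5.63 and 5.99 in CGNP and at most 3.26 in WC (3.13 and 6.07 higher, adjusted p = 1.07e-05 and 5.6e-08, limma). Sin3a, the scaffold of a histone deacetylase complex, was higher by 1.83 and 2.35. Rest itself was low throughout, at 3.56 to 4.31 in the tumors, against 3.80 and 3.87 in CGNP and 3.63 and 3.64 in WC. The groups overlapped, and its difference was 0.22 against CGNP (adjusted p = 0.324, limma) and 0.42 against WC (adjusted p = 0.0488). These corepressors act in many settings, and no link to the release genes was tested.

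**Figure D5:**
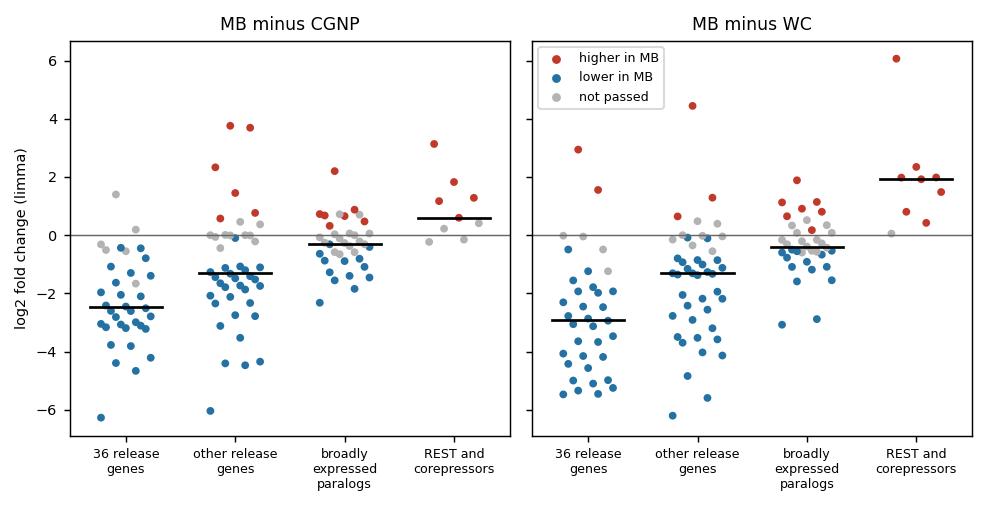
Log2 fold change (y axis) of each gene in MB against CGNP (left) and against WC (right) for the 36 release genes, 44 other release genes, 36 broadly expressed paralogs and 9 genes of REST and its corepressors. Red points passed an adjusted p of 0.05 as higher in MB, blue as lower, grey did not pass, and black lines are medians, which are -2.48 and -2.90 for the 36 release genes.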

How the data were processed

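Affymetrix mouse expression arrays of 8 MB, 2 CGNP and 2 WC samples were used, grouped by their labels, with 1 mouse per array. The authors normalized them by GCRMA (R library affy) and deposited log2 expression levels, 1 per probe set and array. In the annotation used, 34945 of 45101 probe sets matched 1 gene, 932 several genes and 9160 none, and 64 were array controls. Gene levels were means over the probe sets matching 1 gene, leaving out the suffixes s and x except for 290 genes that had no other, which gave 18193 genes. The 36 release genes had 90 such probe sets, of which 82 were averaged. A mean over probe sets near the floor understates a change.

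Tests used limma 3.58.1 in R 4.3.3 (lmFit and eBayes) on all 12 samples in 3 groups, two-sided, and p-values were adjusted over all genes (Benjamini-Hochberg, threshold 0.05). The study's methods instead pooled CGNP and WC in unpaired t-tests. The steps were tested on simulated data. A fold against a group at the floor is given as at least. The members and gene lists were chosen with earlier results of these data known, so no list was tested. Named are all 36 members and, in the other lists, the 2 genes that rose most and the 2 that fell most among those past the test. Promoters are those of RefSeq (GRCm38.p6). Figures were drawn with matplotlib 3.10.9. The number of arrays limits the precision, CGNP and WC having 2 each, and the labels give no batch. Alternatives were other probe set rules, quantile normalization, arrays shifted to 1 median, array weights, a trend and robust spread, the methods' t-test on each pair of groups, a minimum fold change, a filter on low levels, 2 groups alone, CGNP and WC pooled, and each sample left out in turn.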

Additional observations from a re-analysis of the deposited data

Results flagged for a closer look

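Among the 8 tumors, 3 of the 36 release genes had 1 tumor set apart from the rest, meaning that the gap from that tumor to its nearest neighbour took up more of the range over all tumors than the 95% limit of Dixon's test allows. Chance flags about 1 in 20 groups of this size. The share of all genes flagged was not counted, so the 3 are not a result about the release genes as a group. Sv2c had the same value in all tumors and could not be flagged. Sv2b was lowest in tumor MB_1187 at a log2 level of 6.62, with the nearest tumor at 7.82 and the highest at 8.56. Syt2 was highest in tumor MB_630 at 3.28, with the nearest tumor at 2.47, close to the floor of the arrays. Amph was lowest in tumor MB_1197 at 9.05, with the nearest tumor at 9.81. All 3 values lay below those of WC, which stood at 9.98 and 10.03 for Sv2b, 7.87 and 8.13 for Syt2 and 11.34 and 11.58 for Amph.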

How the results depend on the processing

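With each of the 12 samples left out in turn, 26 to 30 release genes were lower and 0 to 1 higher in MB than in CGNP (Vamp1 without tumor MB_1206, Unc13c without tumor MB_1207), 28 to 31 were lower and 2 higher in MB than in WC, and 8 to 11 were lower and 4 to 5 higher in CGNP than in WC. Their median log2 fold change lay between -2.55 and -2.31 for MB against CGNP, -3.02 and -2.83 for MB against WC and -0.47 and -0.34 for CGNP against WC. Other settings moved some values. With a minimum log2 fold change of 1, 23 release genes were lower in MB than in CGNP and 24 lower than in WC. The share of all genes called under that minimum was not counted. The median for MB against WC was -3.36 with the probe set of highest level and -2.57 against CGNP and WC pooled. Higher in MB than in WC were 1 gene with a minimum log2 fold change of 1 and 0 with the normal samples pooled, a pool that by construction hides genes in which CGNP and WC differ: there Slc17a6 stood at 0.26 in place of -2.42 against CGNP, Stx1a at -0.76 in place of 1.55 against WC, and Vamp1 and Unc13c no longer passed. Without WC_2647, Sv2c was 0.32 higher in CGNP than in WC in place of 0.17 lower, at the floor in the remaining WC sample, and without WC_2646 the difference was -0.67. With only CGNP and WC in the fit, 8 genes were higher and 15 lower in CGNP. The share of all genes called in that fit was not counted, and the cause of the change was not tested. The methods' t-test, run here on each pair of groups and not on CGNP and WC pooled, called 29 genes lower and 0 higher in MB than in CGNP and 30 lower than in WC after adjustment, and 32 and 31 at its unadjusted threshold. Shifting the arrays to the same median moved the median of all genes by -0.12 for MB against CGNP, small beside the -2.48 of the release genes. Of the values of single genes under all settings, 2312 kept direction and call, 66 lost a call, 49 gained one and 3 changed direction with a call in one of the settings. Another 15 changed sign with no call in either, among them Vamp1 at -2.12 in place of 0.19 and Unc13c at -1.80 in place of 1.40 against CGNP and WC pooled. Levels near the floor limit the folds of Syt2, Syt5, Slc17a7 and Sv2c, and those of Stx1a against WC.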
